A study of Mus musculus with 6 samples.

Results

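The small leucine-rich proteoglycans are secreted matrix proteins, and 10 of their genes were followed here in the cranial base of Memo1 mutant and control mouse embryos: Dcn, Bgn, Aspn, Lum, Fmod, Kera, Prelp, Omd, Ogn and Epyc. They were taken by symbol from a deposited table of 43496 gene entries, each matched 1 entry, and all 10 were among the 15710 entries with a mean of at least 1 FPKM that were tested. FPKM counts sequenced fragments per kilobase of transcript, scaled to the size of the library, so levels of different genes can be compared. The study sequenced RNA from the cranial base, the cartilage and bone plate under the brain, at E15.5 of embryonic development. There were 3 mutant embryos with an ENU-induced allele of Memo1 and 3 control embryos, all of strain C57BL/6J and 1 library each. The label gives the controls no allele, and it does not say whether the mutants carry the allele on both chromosomes. The comparison asks which genes differ between mutant and control cranial base.

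Proteins of this family have a small core built of leucine-rich repeats, which binds the surface of collagen fibrils and sets their width and spacing. Many carry chains of chondroitin, dermatan or keratan sulfate, and several hold growth factors such as TGF-beta in the matrix. Class I holds decorin (Dcn), biglycan (Bgn) and asporin (Aspn). Class II holds lumican (Lum), fibromodulin (Fmod), keratocan (Kera), Prelp and osteomodulin (Omd), and class III osteoglycin (Ogn) and epiphycan (Epyc). In skeletal tissue decorin and lumican are known from fibrous tissue and perichondrium, osteomodulin from bone, and epiphycan from growing cartilage.

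Most of these genes are neighbours in the genome. In RefSeq, Dcn, Lum, Kera and Epyc follow each other on chromosome 10, Aspn, Omd and Ogn on chromosome 13, and Prelp and Fmod on chromosome 1, while Bgn lies on the X chromosome. The promoters of Aspn, Omd and Ogn are shown because these neighbours were all lower in each mutant than in each control. That of Kera is shown for the lowest ratio of mutant to control, and that of Prelp as the member that was higher. They are RefSeq sequences of GRCm38.p6, 250 bases before to 50 bases after the start, 5′ to 3′, and 8 of the 10 members matched, all but Dcn and Lum. Capitals mark the letters TATAAA and the RUNX core ACCACA on either strand, which in Ogn include both strands of the first, overlapping.
Aspn, chr13:49544193-49544492, plus strand: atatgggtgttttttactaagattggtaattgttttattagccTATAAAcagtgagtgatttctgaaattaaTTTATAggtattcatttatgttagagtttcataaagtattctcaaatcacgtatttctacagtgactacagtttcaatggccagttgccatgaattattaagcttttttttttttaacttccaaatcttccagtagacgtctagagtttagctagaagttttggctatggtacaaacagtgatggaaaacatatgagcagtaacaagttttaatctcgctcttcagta
Omd, chr13:49582212-49582511, plus strand: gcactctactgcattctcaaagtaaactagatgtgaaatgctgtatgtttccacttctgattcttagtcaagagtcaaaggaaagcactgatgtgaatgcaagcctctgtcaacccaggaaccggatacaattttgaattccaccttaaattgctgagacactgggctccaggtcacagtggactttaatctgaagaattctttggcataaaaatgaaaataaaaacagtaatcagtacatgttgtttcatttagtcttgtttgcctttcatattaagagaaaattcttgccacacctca
Ogn, chr13:49607765-49608064, plus strand: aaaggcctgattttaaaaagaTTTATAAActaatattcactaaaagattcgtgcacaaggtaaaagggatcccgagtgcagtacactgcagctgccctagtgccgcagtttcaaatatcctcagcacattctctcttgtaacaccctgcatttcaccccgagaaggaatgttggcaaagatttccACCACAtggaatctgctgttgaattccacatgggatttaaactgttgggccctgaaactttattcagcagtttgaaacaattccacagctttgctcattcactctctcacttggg
Kera, chr10:97606955-97607254, plus strand: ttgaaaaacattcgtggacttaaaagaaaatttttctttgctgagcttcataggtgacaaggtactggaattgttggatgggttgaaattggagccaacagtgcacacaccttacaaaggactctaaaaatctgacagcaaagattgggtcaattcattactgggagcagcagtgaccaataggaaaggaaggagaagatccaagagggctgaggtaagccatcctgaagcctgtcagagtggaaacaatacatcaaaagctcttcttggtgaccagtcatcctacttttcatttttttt
Prelp, chr1:133921352-133921651, minus strand: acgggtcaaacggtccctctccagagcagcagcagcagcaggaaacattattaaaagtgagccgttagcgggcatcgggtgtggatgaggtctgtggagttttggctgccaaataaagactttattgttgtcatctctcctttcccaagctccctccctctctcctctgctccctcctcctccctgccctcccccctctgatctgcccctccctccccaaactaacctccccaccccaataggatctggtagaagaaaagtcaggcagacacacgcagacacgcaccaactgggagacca

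The motif TATAAA stood in the promoters of 2 of 8 members, Aspn and Ogn, and in 13.6% of 32851 mouse promoters of the same length. Members are counted by gene (8 genes with 9 promoters) and the background by promoter, so the units are not alike. The RUNX core stood in 2 of 8, Ogn and a promoter of Epyc, against 16.8% of all. The SOX core ACAAAG stood in 2 of 8, Kera and another promoter of Epyc, against 18.7% of all. The E-box CATCTG stood in Fmod alone, against 17.2% of all. No member held the AP-1 motif TGANTCA, which 7.81% of promoters hold, or the SMAD element GTCTAGAC, which 0.213% hold. No shared motif was thus found among the 3 neighbours on chromosome 13, where the promoter of Omd held none of the 6 motifs searched on both strands. The GC content was 31% for Aspn, 37.7% for Omd and 42.3% for Ogn, against 55.3% for Prelp, and the median of all promoters was 52.7%.

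The libraries were not alike. The table holds no counts, but the spacing of its low values gives a depth relative to control 1, for mutants 2 and 3 of 117% and 152%, and for controls 2 and 3 of 80.4% and 92.4%. Depth and genotype cannot be told apart in these libraries. Mutant 1 gave no usable spacing, listed 30811 entries at 0 against 19787 to 20594 in the other 5, and correlated with them at r = 0.748 to 0.762 across tested genes, against 0.968 to 0.981 among the others. Mutant 1 lacked a value above 0 for 823 of the 10192 entries that exceeded 5 FPKM in each other library. Results for the members are therefore given with mutant 1 and without it. A further fit uses array weights that let mutant 1 count for little (0.0329 against 1.47 to 2.76). Memo1 itself was 25.4, 20.1 and 22.2 FPKM in the mutants and 19.1, 23.1 and 21.9 FPKM in the controls, which does not check the labels, since such an allele may leave the mRNA level as it is. Xist reached 114 FPKM in mutant 3, against 0.0942 FPKM or less in each other library, so mutant 3 was the only female. Chondrocyte markers were abundant in every library, with a summed level of 4165 to 4652 FPKM in the mutants and 2818 to 3647 FPKM in the controls.

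Of the 10 proteoglycans, 9 had a log2 change below 0 and only Prelp was above it when all 6 libraries counted equally. In 7 of them, Dcn, Bgn, Aspn, Lum, Kera, Omd and Ogn, every mutant lay below every control, which held for 11.9% of all tested genes. In 1, Prelp, every mutant lay above every control, against 8.98% of tested genes. Without mutant 1 the counts were again 7 and 1, against 20.1% and 16.2% of tested genes. Leaving out a library can only keep or raise such counts. The median log2 change of the 10 was -0.48, beside -0.046 over all tested genes. In bulk tissue, fewer cells of a type and less RNA per cell cannot be told apart.

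No member passed the test in the comparison of all 6 libraries with equal weights. There limma called 0% of the 15710 genes at a Benjamini-Hochberg adjusted p under 0.05 in either direction. At an unadjusted p under 0.05 it counted 5 members lower and 1 higher, against 3.01% and 2.11% of tested genes. With array weights limma called 2 members lower, Kera and Omd, against 1.32% of tested genes, and 0 higher, against 0.719%. Without mutant 1 it called 0 members, against 0.0318% of genes lower and 0.0127% higher, and at an unadjusted p under 0.05 it counted 6 lower and 1 higher, against 9.41% and 7.56% of genes.

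**Figure D1:**
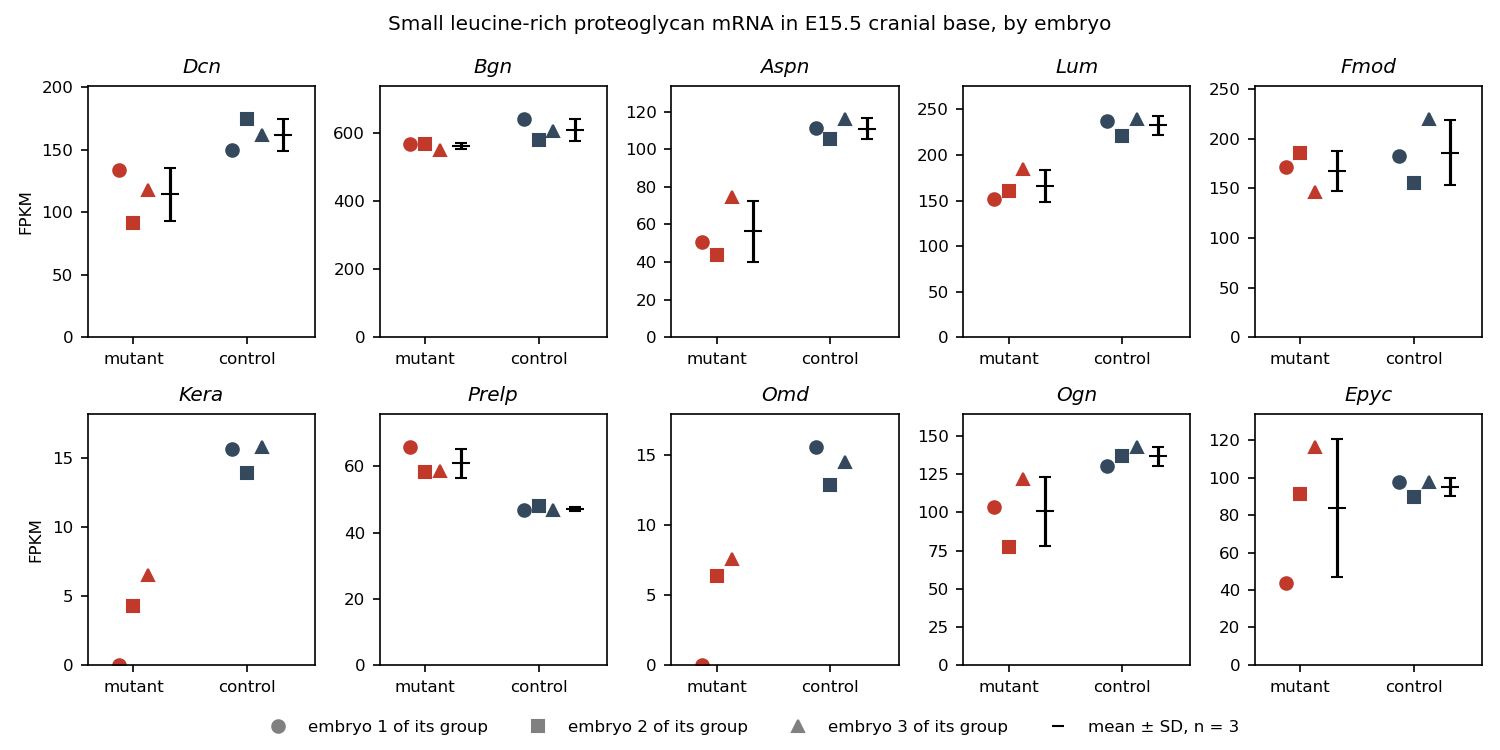
FPKM (vertical axes, each from 0) of the 10 proteoglycans in single mutant (red, left) and control (dark, right) embryos, with mean and SD except for Kera and Omd, which are listed at 0 in mutant 1. Mutants lie below controls without overlap in 7 panels, above them in the Prelp panel, and overlap with them in the Fmod and Epyc panels.

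Among class I, decorin carries 1 of the family's chondroitin or dermatan sulfate chains and binds collagen fibrils and TGF-beta. Dcn was 134, 91.2 and 118 FPKM in mutants 1, 2 and 3, and 149, 175 and 161 FPKM in controls 1, 2 and 3. The groups did not overlap, but mutant 1 and control 1 lay close to each other. Dcn averaged 114 ± 21.4 FPKM in mutants and 162 ± 12.6 FPKM in controls (SD, n = 3 each), a ratio of 0.706. Its log2 change was -0.51 (SE 0.16, limma adjusted p = 0.695), and -0.58 with array weights (SE 0.11, limma adjusted p = 0.0507). It was -0.63 without mutant 1 (limma adjusted p = 0.105).

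Biglycan, a close relative of decorin that is abundant in bone and cartilage, had the highest level of the family in each library, at rank 93 of the tested genes by mean FPKM. Bgn was 568, 567 and 551 FPKM in the mutants and 642, 578 and 605 FPKM in the controls. The groups were close, and the highest mutant lay just below the lowest control. The ratio of means was 0.923 and the log2 change -0.11, with a 95% interval of -0.28 to 0.055 (limma adjusted p = 0.695). It was -0.12 with array weights (limma adjusted p = 0.36) and -0.12 without mutant 1 (limma adjusted p = 0.472). Bgn is X-linked, and mutant 3, the only female, had the lowest of the 6 values.

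Asporin, which has a run of acidic residues in place of a sulfated chain and binds collagen and calcium, had the lowest ratio among the members found in every library. Aspn was 50.5, 43.7 and 74.9 FPKM in the mutants and 111, 105 and 116 FPKM in the controls. The controls lay within 1.1-fold of each other, and the mutants spread over 1.71-fold below them. Aspn averaged 56.4 ± 16.4 FPKM in mutants and 111 ± 5.45 FPKM in controls (SD, n = 3 each), a ratio of 0.507. The log2 change was -1.002 (SE 0.21, limma adjusted p = 0.695), -0.82 with array weights (limma adjusted p = 0.0702) and -0.94 without mutant 1 (limma adjusted p = 0.121).

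In class II, lumican is a keratan sulfate proteoglycan that keeps collagen fibrils thin. Lum was 151, 160 and 185 FPKM in the mutants and 237, 221 and 239.8 FPKM in the controls. The spread within each group was smaller than the gap between them. Lum averaged 166 ± 17.5 FPKM in mutants and 233 ± 10.4 FPKM in controls (SD, n = 3 each), a ratio of 0.712. Its log2 change was -0.49 (SE 0.10, limma adjusted p = 0.695), and -0.39 with array weights (SE 0.078, limma adjusted p = 0.0519). It was -0.43 without mutant 1 (limma adjusted p = 0.11).

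Fibromodulin, which guides collagen crosslinking by lysyl oxidase, did not separate the groups. Fmod was 171, 186 and 146 FPKM in the mutants and 182, 155 and 220.3 FPKM in the controls. The log2 change was -0.14, with a 95% interval of -0.54 to 0.26 (limma adjusted p = 0.706). That interval takes in the mean changes of Dcn and Lum as well as 0. The change of Fmod was -0.19 with array weights (limma adjusted p = 0.556) and -0.16 without mutant 1 (limma adjusted p = 0.673).

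Keratocan, best known from the corneal stroma, had the lowest ratio of the family. Kera was listed at 0 in mutant 1 and was 4.31 and 6.5 FPKM in mutants 2 and 3, against 15.7, 13.9 and 15.9 FPKM in the controls. Both mutants with a value above 0 lay well below the lowest control. Of 2013 genes with a mean within 1.25-fold of that of Kera in the other 5 libraries, 252 (12.5%) were also listed at 0 in mutant 1. Without mutant 1 the log2 change was -1.36 (SE 0.16, limma adjusted p = 0.0526). With array weights Kera fell, with a log2 change of -1.29 (SE 0.19, limma adjusted p = 0.0292).

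Osteomodulin, also called osteoadherin, is a keratan sulfate proteoglycan of mineralizing bone matrix. Omd was listed at 0 in mutant 1 and was 6.34 and 7.56 FPKM in mutants 2 and 3, against 15.6, 12.8 and 14.5 FPKM in the controls. Mutants 2 and 3 were close to each other and lay well below the controls. Without mutant 1 the log2 change was -0.95 (SE 0.12, limma adjusted p = 0.0568). With array weights Omd fell, with a log2 change of -0.93 (SE 0.18, limma adjusted p = 0.0489). At the level of Omd 12.4% of genes were listed at 0 in mutant 1.

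Prelp, whose arginine-rich end binds heparan sulfate, was the member with higher levels in mutants. Prelp was 66, 58.3 and 58.5 FPKM in the mutants and 46.8, 47.9 and 46.8 FPKM in the controls. The controls were nearly equal, mutants 2 and 3 were as well, and mutant 1 was the highest of all. Prelp averaged 60.9 ± 4.39 FPKM in mutants and 47.2 ± 0.646 FPKM in controls (SD, n = 3 each), a ratio of 1.29. Its log2 change was 0.36 (SE 0.098, limma adjusted p = 0.695), and 0.30 with array weights (SE 0.06, limma adjusted p = 0.0522). It was 0.30 without mutant 1 (limma adjusted p = 0.121).

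In class III, osteoglycin is a small proteoglycan of fibrous tissue and bone. Ogn was 103, 77.1 and 122 FPKM in the mutants and 131, 137 and 143 FPKM in the controls. Mutant 3 came near the lowest control, and mutant 2 was farthest from it. The ratio of means was 0.737 and the log2 change -0.46 (SE 0.18, limma adjusted p = 0.695). It was -0.39 with array weights (limma adjusted p = 0.259) and -0.49 without mutant 1 (limma adjusted p = 0.26).

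Epiphycan, a proteoglycan of epiphyseal cartilage, varied most among the mutants of the members detected in every library. Epyc was 43.8, 91.4 and 117 FPKM in the mutants and 97.6, 89.6 and 97.7 FPKM in the controls. The mutants lay on both sides of the controls, with mutant 1 lowest. The log2 change was -0.29 with all 6 libraries (95% interval -1.17 to 0.60), and 0.12 without mutant 1 (95% interval -0.16 to 0.40, limma adjusted p = 0.641), so its direction rested on mutant 1.

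**Figure D2:**
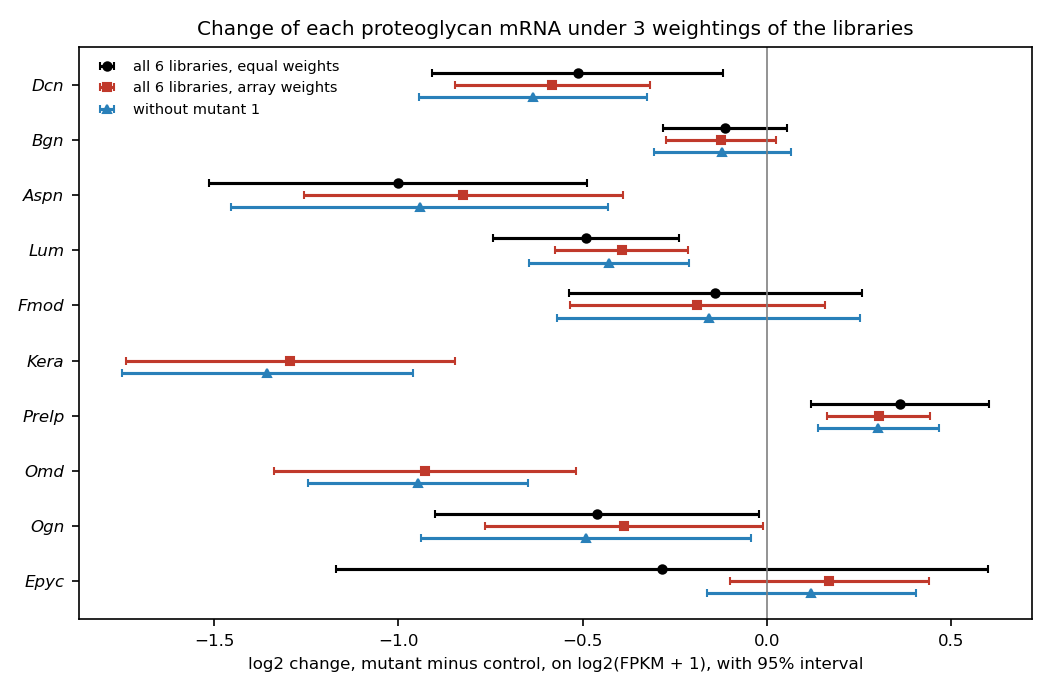
Log2 change, mutant minus control, on the log2(FPKM + 1) scale (horizontal axis) for each proteoglycan, with 95% intervals, for all 6 libraries with equal weights (black), with array weights (red) and without mutant 1 (blue). The equal-weight value is left out for Kera and Omd, whose change then depends on the pseudocount. Prelp lies to the right of 0 in each fit, Epyc moves across 0, and the intervals of Fmod, Bgn and Epyc include 0.

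The order of the levels was much the same in both groups. By mean FPKM it was Bgn, Fmod, Lum, Dcn, Ogn, Epyc, Prelp and Aspn in mutants, before Omd and Kera, and Bgn, Lum, Fmod, Dcn, Ogn, Aspn, Epyc, Prelp, Kera and Omd in controls. Neighbours in this order did not all differ beyond their spread: in mutants Fmod (168 ± 20 FPKM) and Lum (166 ± 17.5 FPKM) overlapped, and in controls Kera and Omd did (SD, n = 3 each). Aspn stood above Prelp in each control and above it in 1 mutant, mutant 3.

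Taken as a sum, the 10 mRNAs came to 1287, 1286 and 1387 FPKM in the mutants and to 1629, 1535 and 1661 FPKM in the controls. No mutant reached the lowest control, and the ratio of means was 0.821, or 0.831 without mutant 1. Within that sum Bgn held a larger share in mutants, 44.1%, 44.1% and 39.7%, against 39.4%, 37.7% and 36.4% in controls. The share of Prelp was 4.63% ± 0.461 in mutants and 2.94% ± 0.161 in controls, and that of Aspn 4.24% ± 1.04 in mutants and 6.9% ± 0.0843 in controls (SD, n = 3 each). Lum held 12.5% ± 0.804 of the sum in mutants and 14.5% ± 0.093 in controls (SD, n = 3 each). In each of these 4 shares the groups did not overlap, with a two-sided exact permutation p = 0.1, the smallest that 3 against 3 can give. The shares of Kera and Omd were also lower in every mutant, and mutant 1 counts there as 0. For Dcn, Fmod, Ogn and Epyc the shares overlapped (exact permutation p = 0.3, 0.4, 0.5 and 0.9), and 10 shares were tested in all. A share within a library does not depend on the scaling between libraries.

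**Figure D3:**
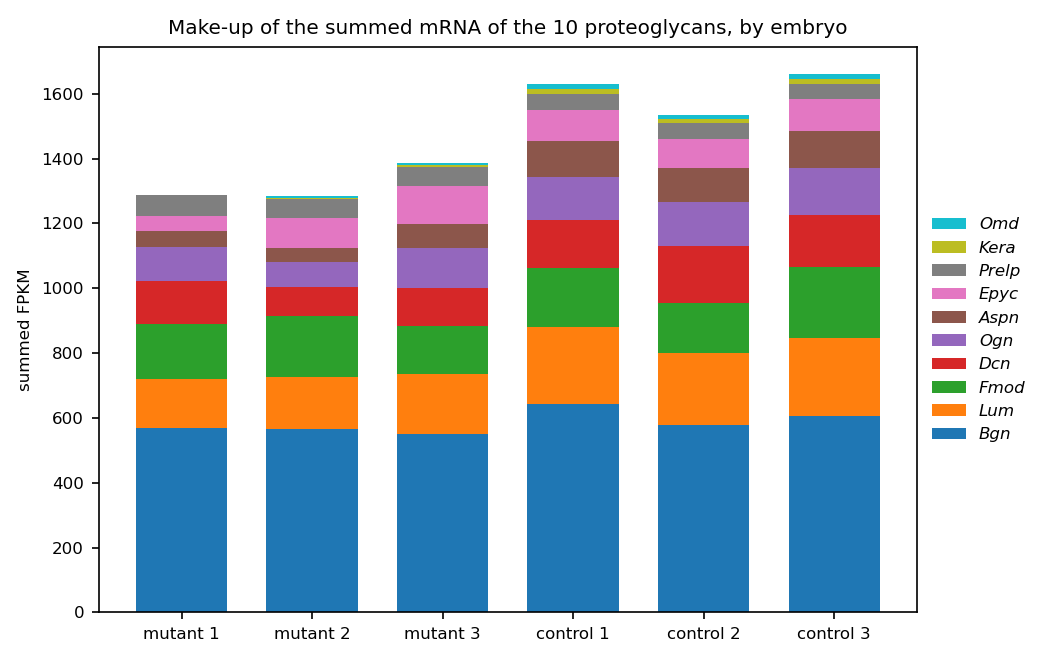
Summed FPKM (vertical axis, from 0) of the 10 proteoglycans in each embryo, mutants left and controls right, with 1 colour for each gene. The columns of the mutants reach 1286 to 1387 FPKM and those of the controls 1535 to 1661 FPKM, with Bgn as the largest part of each.

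The 3 neighbourhoods did not differ by the same amount. Aspn, Omd and Ogn together were 154, 127 and 205 FPKM in the mutants and 258, 255 and 274 FPKM in the controls, a ratio of 0.617. Dcn, Lum, Kera and Epyc together were 328, 347 and 426 FPKM in the mutants and 499.9, 499 and 515 FPKM in the controls, a ratio of 0.728. Fmod and Prelp together were 237, 244 and 205 FPKM in the mutants and 229, 203 and 267 FPKM in the controls, a ratio of 0.981. The first 2 sums separated the groups and the third did not. The differences between these ratios were not tested. Aspn, Omd and Ogn lie inside Cenpp, a centromere protein gene on the opposite strand, whose exons share 7 bases with those of Aspn and 0 with those of Omd and Ogn in the annotation. The sources used here do not say whether the authors counted by strand. Cenpp was listed at 0 in mutant 1 and was 4.46 and 5.63 FPKM in mutants 2 and 3, against 5.64 to 5.85 FPKM in the controls.

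Of 9 further genes of the family, 6 were tested, 3 above 0 and 3 below, and 0 passed with equal weights. Without mutant 1, 4 were above 0 and 2 below. Chadl, a relative of chondroadherin in cartilage, was 103, 50.04 and 53.4 FPKM in the mutants and 27.5, 29 and 38.1 FPKM in the controls, and with array weights it rose (log2 change 0.75, SE 0.13, limma adjusted p = 0.0427, and 0.107 without mutant 1). Podn, the class V member podocan, was 19.6, 14.4 and 12.04 FPKM in the mutants and 7.32, 7.42 and 11.1 FPKM in the controls (limma adjusted p = 0.132 with array weights). In these 2 of the 6 tested genes every mutant lay above every control, as with Prelp, against 8.98% of tested genes. In 1, Podnl1, every mutant lay below every control, against 11.9% of tested genes. Chad, the integrin-binding cartilage protein chondroadherin, was 67.6, 58 and 61.1 FPKM in the mutants and 67, 63.1 and 74.8 FPKM in the controls, which overlap. Tsku, a secreted modulator of growth factor signals, was 25.3 to 29.4 FPKM in the mutants and 25.3 to 25.8 FPKM in the controls. Podnl1 was listed at 0 in mutant 1 and was 0.863 and 0.969 FPKM in mutants 2 and 3, against 1.66 to 2.19 FPKM in the controls. Ecm2, the neighbour of Aspn, was also listed at 0 in mutant 1 and was 3.55 and 4.3 FPKM in mutants 2 and 3, against 3.11 to 3.55 FPKM in the controls. Optc, Nyx and Nepn were at most 1.01 FPKM in any library.

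Genes for the sulfated chains lay mostly above 0, while the core proteins lay mostly below. Of 14 tested genes of chondroitin and dermatan sulfate synthesis, 12 were above 0, and the median log2 change was 0.21, beside -0.046 over all tested genes. In 4 of these 14 genes every mutant lay above every control, against 8.98% of tested genes. None of the 14 passed in either weighting. Csgalnact1, which starts the chondroitin chain, was 26.7, 21.1 and 24.8 FPKM in the mutants and 15.9, 14.6 and 17.6 FPKM in the controls. Its limma adjusted p was 0.0519 with array weights and 0.133 without mutant 1. Chst11, a chondroitin sulfotransferase, was 48.5, 36.1 and 43.3 FPKM in the mutants and 32.6, 30.04 and 33.9 FPKM in the controls, and Chst12, another, was 29.5, 33.1 and 32.2 FPKM in the mutants and 26.9, 27.2 and 26.9 FPKM in the controls. Of 7 linker genes 5 were above 0, with a median of 0.20 and 0 called. Xylt1, which adds the first sugar to the core protein, was 27.1, 17.2 and 18.4 FPKM in the mutants and 11.5, 10.9 and 15.02 FPKM in the controls. Xylt2, its relative, was 41.2, 24.1 and 23.7 FPKM in the mutants and 20.6, 21.2 and 19 FPKM in the controls. Pxylp1, a phosphatase of the linker, was 64.8, 28.6 and 26.7 FPKM in the mutants and 21.4 to 21.8 FPKM in the controls. In these 3 linker genes no mutant reached down to the controls, against 8.98% of tested genes, and mutant 1 was the highest. B3galt6, of the same list, lay below every control in each mutant, against 11.9% of tested genes. It was 2.79, 4.33 and 4.18 FPKM in the mutants and 4.36 to 4.44 FPKM in the controls, and was named after its values were seen.

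Of 8 genes of keratan sulfate synthesis 6 were above 0, with a median of 0.14, and in 0 did the groups separate. B3gnt2, which extends the chain, was 13.9, 11.1 and 10.2 FPKM in the mutants and 11.3, 5.93 and 6.71 FPKM in the controls. B4galt4, a galactosyltransferase, was 12.8 to 21.2 FPKM in the mutants and 12.5 to 14.3 FPKM in the controls, and Fut8, a fucosyltransferase, 15.3 to 21.4 FPKM in the mutants and 14.4 to 17.2 FPKM in the controls.

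Among 19 tested fibrillar collagens and crosslinking partners, 12 were above 0 and 7 below, with a median log2 change of 0.095 and 0 called in either weighting. The median was 0.038 with array weights and 0.027 without mutant 1. The chains of type I collagen, the fibril that decorin and lumican bind in bone and fibrous tissue, were lower. Col1a2 was 569, 745 and 633 FPKM in the mutants and 1036, 916 and 1250 FPKM in the controls. Its log2 change was -0.71 (SE 0.15, limma adjusted p = 0.695). The limma adjusted p of Col1a2 was 0.0525 with array weights and 0.129 without mutant 1. Col1a1 was 687, 891 and 667 FPKM in the mutants and 1037, 900 and 1354 FPKM in the controls. The groups did not overlap in either gene, although mutant 2 came close to control 2 in Col1a1. Col2a1, the cartilage collagen, was 2660, 2482 and 2315 FPKM in the mutants and 1570, 1764 and 2207 FPKM in the controls, without overlap in the other direction.

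Proteases that cut these proteoglycans or their partners held the largest log2 differences among the lists of chains, partners and turnover. Of 12 tested, 8 were below 0 with equal weights, with a median log2 change of -0.22 and 0 called. That median rested on mutant 1: it was -0.037 with array weights and -0.026 without mutant 1, with 7 of 12 below 0, beside -0.017 and -0.015 over all tested genes. With array weights limma called 3 of the 12 lower, against 1.32% of tested genes. The fit without mutant 1 called 1 lower, Mmp13, against 0.0318% of tested genes. In 5 of the 12 every mutant lay below every control and in 3 above, against 11.9% and 8.98% of tested genes. The 3 higher were Bmp1, Mmp2 and Mmp14, named after their values were seen. Mmp13, a collagenase that hypertrophic cartilage and bone-forming cells make, was listed at 0 in mutant 1 and was 1.28 and 1.19 FPKM in mutants 2 and 3, against 27, 19 and 33.3 FPKM in the controls (limma adjusted p = 0.00159 with array weights and 0.00981 without mutant 1). Another, Mmp9, is a gelatinase abundant in osteoclasts and was 5.6, 5.93 and 4.4 FPKM in the mutants and 26, 19.4 and 31.3 FPKM in the controls (limma adjusted p = 0.0103 with array weights and 0.0507 without mutant 1). Ctsk, the osteoclast protease cathepsin K, was 39, 30.6 and 42.3 FPKM in the mutants and 81, 59 and 77.9 FPKM in the controls (limma adjusted p = 0.0475 with array weights and 0.0957 without mutant 1). Bmp1, which trims the propeptides of biglycan and collagens, was above 0 instead, at 56.2, 59 and 53.3 FPKM in the mutants and 45.7, 46.1 and 48.2 FPKM in the controls, and it was chosen after its values were seen.

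Of 17 tested receptors and ligands that bind these proteoglycans, 11 were above 0, with a median log2 change of 0.022 and 0 called in either weighting. Without mutant 1 the median was 0.037, with 10 above 0. Mutants were higher without overlap in 1 of the 17, against 8.98% of tested genes, and lower in 0, against 11.9%. The 1 was Tgfb3, a gene named after its values were seen. The smallest p among the 17 belonged to Erbb2, Ctgf and Tgfb2. Erbb2, an ERBB receptor, was 44.3, 33.9 and 30.7 FPKM in the mutants and 31.5, 28.3 and 27.4 FPKM in the controls. Ctgf, a matrix growth factor, was 36 to 58.1 FPKM in the mutants and 33.3 to 38.2 FPKM in the controls, and Tgfb2, a TGF-beta ligand, 21.6 to 25.4 FPKM in the mutants and 18.3 to 22.3 FPKM in the controls. The groups overlapped in all 3.

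**Figure D4:**
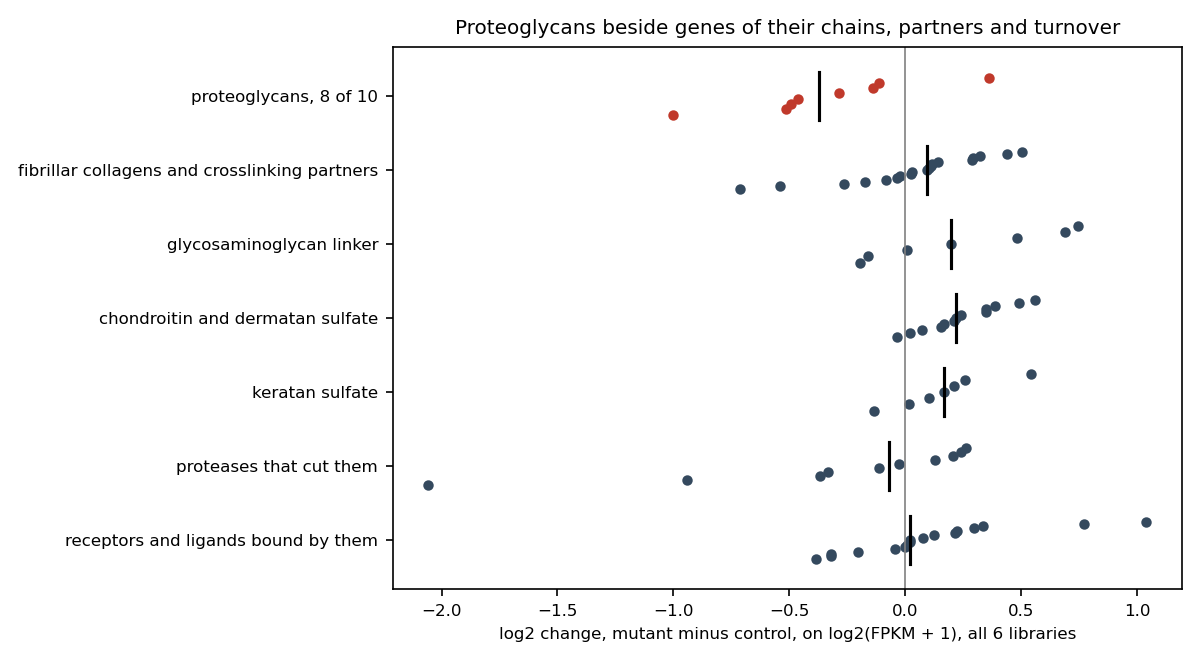
Log2 change, mutant minus control, on the log2(FPKM + 1) scale with all 6 libraries (horizontal axis) for 8 of the proteoglycans (red) and for genes of their chains, partners and turnover (dark), 1 point a gene, with the median as a bar. Genes listed at 0 in any library are left out. The median is -0.37 for the 8 proteoglycans plotted and 0.22 for the chondroitin and dermatan sulfate genes plotted.

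Markers of several cell types differed beside the proteoglycans. Over all tested genes, 11.9% were lower and 8.98% were higher in mutants without overlap. Osteoblast markers summed to 389 to 658 FPKM in the mutants and 995 to 1400 FPKM in the controls, with 6 of 10 genes lower without overlap and Bglap and Bglap2 listed at 0 in mutant 1. Adipocyte markers summed to 140 to 215 FPKM in the mutants and 401 to 496 FPKM in the controls, with 7 of 8 lower without overlap, and 6 of 8, among them Adipoq and Cidec, listed at 0 in mutant 1. Epithelial markers summed to 377 to 419 FPKM in the mutants and 688 to 699 FPKM in the controls, with 5 of 8 lower without overlap. Skeletal muscle markers summed to 2106 to 2736 FPKM in the mutants and 3133 to 4360 FPKM in the controls, with 3 of 7 lower without overlap. Chondrocyte markers, with sums given above, had 8 of 13 genes higher without overlap. Tendon markers summed to 170 to 204 FPKM in the mutants and 126 to 145 FPKM in the controls, with 5 of 7 higher without overlap. Meningeal markers summed to 581 to 641 FPKM in the mutants and 406 to 476 FPKM in the controls, with 3 of 7 higher without overlap. Ptgds made up most of that sum, at 504, 466 and 520 FPKM in the mutants and 322, 355 and 391 FPKM in the controls. With equal weights 4 of the 7 were above 0 and 3 below. With array weights limma called 3 osteoblast, 5 adipocyte, 6 epithelial and 0 skeletal muscle markers lower, against 1.32% of tested genes. In that fit 4 chondrocyte, 1 tendon and 3 meningeal markers were called higher, against 0.719% of tested genes. Without mutant 1 limma called 1 adipocyte and 2 epithelial markers lower, against 0.0318% of tested genes, and 0 osteoblast, skeletal muscle, chondrocyte, tendon or meningeal markers. The part of these markers in the lower proteoglycans was not tested.

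Fibroblast markers, of the cells known to make decorin and lumican, overlapped between the groups, with sums of 583, 470.2 and 425 FPKM in the mutants and 456 to 486 FPKM in the controls. Mutant 1 was the highest of all, and the direction of the list turned with it. The median log2 change was 0.036 with equal weights, with 5 genes above 0 and 4 below. It was -0.18 with array weights and -0.19 without mutant 1, with 2 above 0 and 7 below in both. Among the 9 of these genes that were measured, 2 were lower and 1 was higher without overlap, against 11.9% and 8.98% of tested genes. With array weights limma called 1 of them, Fbln1, higher (log2 change 0.52, limma adjusted p = 0.0223), and 0 lower. Without mutant 1 limma called 0 of them. Markers of perichondrium and periosteum summed to 642 to 779 FPKM in the mutants and 749 to 809 FPKM in the controls, and those of endothelium to 182 to 198 FPKM in the mutants and 162 to 183 FPKM in the controls. Of the 5 corneal markers, where Kera is best known, Krt12 was at most 0.0832 FPKM and Chst4 was listed at 0 in all libraries, and the sum of the list came almost wholly from Ptgds, which is also in the meningeal list.

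**Figure D5:**
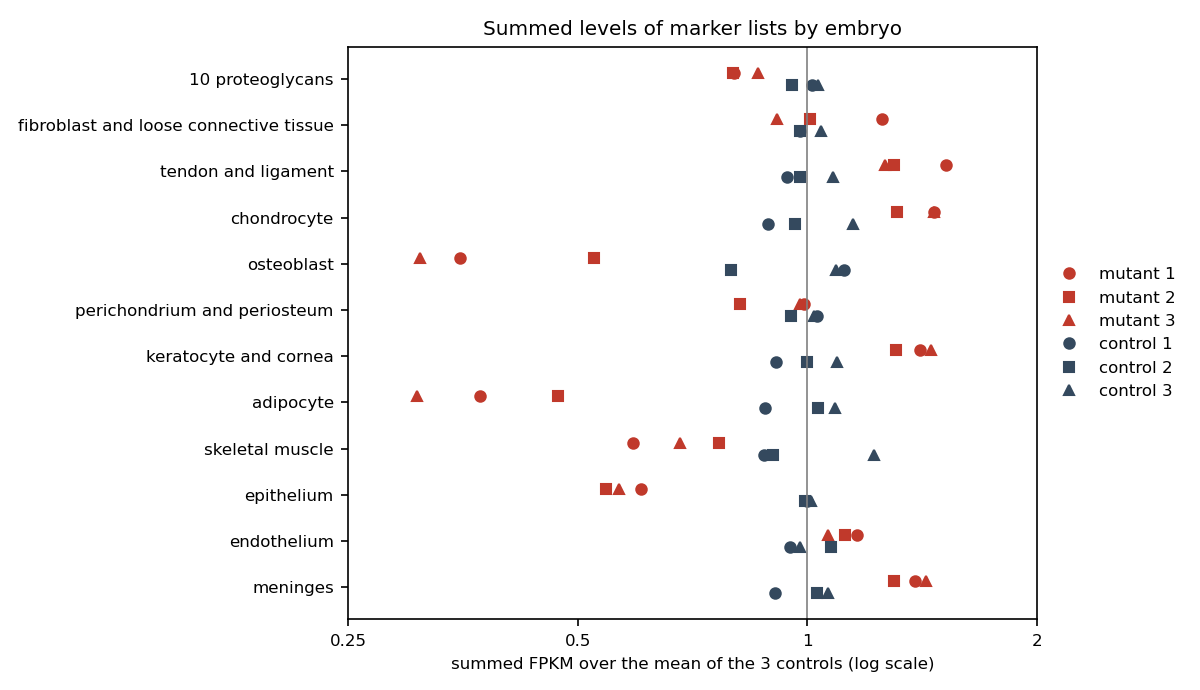
Summed FPKM of the 10 proteoglycans and of each marker list in single embryos, divided by the mean of the 3 controls (horizontal axis, log scale), mutants (red) above controls (dark). Osteoblast, adipocyte, skeletal muscle and epithelial sums lie lower in mutants, chondrocyte, tendon and meningeal sums higher, and fibroblast sums overlap.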

How the data were processed

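RNA of 6 E15.5 cranial bases was sequenced, 3 of Memo1 mutants and 3 of controls, numbered in accession order. The deposited FPKM values were made by the authors. Cufflinks (no version) and build mm9 are named in the submitters' processing notes. The unit was inferred from that tool and the values. The sources used here name no aligner, annotation or filter. The deposited table also holds a fold, which the authors signed as a score, and the test behind the deposited p-value and q-value is not named in those sources. The code 999999999 was treated as missing, which left out 15 entries.

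The test was limma 3.58.1 (R 4.3.3), two-sided, run on log2(FPKM + 1) for entries whose mean in the 6 libraries reached 1 FPKM. The model held genotype alone and eBayes used a trend and robust estimates, with Benjamini-Hochberg adjustment over all 15710 entries and a threshold of 0.05. Fold changes on that scale understate those of low genes. The procedure was also run on simulated data. Their means and spread left out mutant 1, so that run does not check its effect. Shares were tested with scipy 1.17.1. Depth was read from entries below 0.1 FPKM in control 1, where at least 100 ratios of a library to control 1 had to gather within 2%.

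The members and gene lists were chosen with earlier results of these data known. Named are all 10 members, further family genes, for each list of chains, partners, proteases and receptors the called genes or else the 3 with the smallest p, for marker lists the sums and genes at 0, and the 5 profiles nearest to Bgn. Of 192 listed genes 5 were not matched. Each library is taken as 1 embryo, since the labels' protocols describe genotyped embryos and every title differs, but no label states it outright. The titles begin with a word of unstated meaning that mutant 1 shares with control 1 and mutant 3 with controls 2 and 3.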

Additional observations from a re-analysis of the deposited data

How the results depend on the processing

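Over 17 alternatives (pseudocounts of 0.1 and 0.5, no filter or at least 5 FPKM, scaling by median ratios or quantiles, another variance model, array weights, the title word as a random effect or block, each library left out, and array weights without mutant 1, chosen after seeing the data) 9 of the 10 members kept their direction. Epyc turned, to a log2 change of 0.17 with array weights, 0.12 without mutant 1 and 0.13 with weights among the other 5, and its lowest value with a library left out was -0.58; the direction thus rests on mutant 1. The count of members called was 2 with array weights and 0 in the other alternatives, so the calls of Kera and Omd are lost once mutant 1 is left out. Over all tested genes limma called 320 with array weights, 1 with quantile normalization, 7 without mutant 1, with or without weights, and 0 otherwise. Leaving out 1 library gave 0 to 7 calls. The counts of 7 lower and 1 higher member without overlap did not rise without any library. Leaving out a library cannot lower such a count, so this is no check of them. The limma adjusted p ranged from 0.0292 to 0.872 for Kera and from 0.0489 to 0.872 for Omd. No scaling moved the median of all genes by over 0.1. The replicate numbers follow accession order and pair no samples. With the title word as a random effect or as a block limma called 0 genes. Mutant 2 shares its title word with no other library, so with the block it adds nothing to the genotype difference. The depth of mutant 1, where Kera and Omd are listed at 0, is unknown.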

Other observations

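Within embryos whose titles share a first word, the members can be set side by side without a test. Aspn had a log2 difference of -1.13 for mutant 1 minus control 1 and of -0.56 for mutant 3 minus the mean of controls 2 and 3. For Lum these were -0.65 and -0.31, for Dcn -0.16 and -0.51, for Ogn -0.34 and -0.19, for Bgn -0.18 and -0.10, and for Prelp 0.49 and 0.30. Epyc differed in sign, -1.14 and 0.32. Fmod had -0.09 and -0.34. Kera had -1.08 and Omd -0.77 in the second of these comparisons.

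The authors' deposited table gives its own statistics for the members. There the smallest p among the 10 is that of Prelp, 0.00362 (q = 0.246), followed by Lum at 0.00637 (q = 0.246) and Aspn at 0.0124 (q = 0.291). In the authors' deposited table Kera has a p of 0.0673 and Omd of 0.124, with signed folds of -4.21 and -3.09 that count mutant 1 at 0.

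The 5 tested genes whose centred log2(FPKM + 1) values lay nearest to those of Bgn over the 6 libraries were Tmem176a, N6amt2, Arhgdia, Hs1bp3 and Nol6, with root mean square differences of 0.0226 to 0.0297. Like Bgn, all 5 varied little between libraries. Arhgdia, for example, was 335, 329 and 329 FPKM in the mutants and 367, 347 and 365 FPKM in the controls.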
